A study of Mus musculus with 16 samples.

Results

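The DNAJ genes encode the HSP40 co-chaperones, and they were taken here as every gene of the deposited table of all genes whose symbol begins with Dnaja, Dnajb or Dnajc followed by a digit. The rule found 45 of the 25905 genes listed: 4 of class A, 13 of class B and 28 of class C. RNA sequencing was done on retinas of the right eye of wild-type male C57BL/6 mice, 10-week-old per the labels. That age applies to the mice when they were sent into space. Eyes were collected after the flight and the return to Earth, so the flown mice were older at sampling than their label. The age of the ground control mice at sampling is not given in the sources used here. The labels give 8 libraries of mice flown on the International Space Station (spaceflight) and 8 of mice kept on Earth in the same type of housing (ground control). The per-library columns carry laboratory codes that match no sample label, so values per mouse and the comparison of flight with ground control are not analysed here. What follows rests on 1 value per gene, the authors' mean over all 16 libraries of the counts divided by DESeq2 size factors, named the mean normalized count below. It is a single pooled value, so differences between genes are not set against the spread between mice here, and the order of genes was not tested. In whole tissue, fewer cells of a type and less RNA per cell cannot be told apart.

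Proteins of the HSP70 family bind exposed hydrophobic stretches of other proteins and hydrolyse ATP to hold them. A DNAJ protein can deliver the client and can stimulate that hydrolysis through its J domain. The J domain is a short helical fold in which a loop of histidine, proline and aspartate (HPD) is needed for the effect. Class A proteins carry the J domain at the N terminus together with a glycine- and phenylalanine-rich stretch and a zinc-finger region, class B proteins lack the zinc finger, and class C proteins share only the J domain, which can lie anywhere in the chain. Photoreceptors renew their outer segments throughout life, and co-chaperones of the endoplasmic reticulum (ER), of synaptic vesicles and of clathrin coats are known to act in neurons.

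The J domain is what makes these genes a family, so its central stretch is shown for members that differ in class, level or position. Each line gives 69 bases of coding sequence, 5′ to 3′, from the reference transcripts of GENCODE release M21 on GRCm38, with the 9 bases that encode the HPD loop in capitals. Most of the stretches are joined across an intron.
Dnaja2: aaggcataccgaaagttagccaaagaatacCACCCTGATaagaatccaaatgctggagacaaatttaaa
Dnaja1: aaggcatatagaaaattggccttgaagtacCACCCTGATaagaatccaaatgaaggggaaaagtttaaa
Dnaja3: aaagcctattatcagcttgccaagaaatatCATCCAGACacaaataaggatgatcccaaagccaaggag
Dnajb1: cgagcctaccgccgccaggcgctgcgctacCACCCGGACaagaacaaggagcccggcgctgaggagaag
Dnajb9: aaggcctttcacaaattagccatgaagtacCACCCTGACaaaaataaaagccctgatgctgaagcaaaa
Dnajb6: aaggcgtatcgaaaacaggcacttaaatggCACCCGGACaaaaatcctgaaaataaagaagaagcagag
Dnajb7: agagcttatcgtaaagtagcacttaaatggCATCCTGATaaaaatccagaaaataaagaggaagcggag
Dnajc5: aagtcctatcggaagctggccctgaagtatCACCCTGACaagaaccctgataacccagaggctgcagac
Dnajc7: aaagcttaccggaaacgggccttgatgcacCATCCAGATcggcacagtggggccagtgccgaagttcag
Dnajc8: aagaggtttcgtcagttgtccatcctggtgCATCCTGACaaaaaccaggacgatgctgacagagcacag
Dnajc13: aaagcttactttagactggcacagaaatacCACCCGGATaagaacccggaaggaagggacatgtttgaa

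These stretches lie within coding exons. That of Dnaja2 spans chr8:85553405-85555172 on the minus strand, exons 1 to 3, and that of Dnaja1 spans chr4:40723782-40723978 on the plus strand, exons 2 to 3. The Dnaja3 stretch spans chr16:4687356-4690034 (plus, exons 2 to 3). The Dnajb1 stretch lies in exon 1 at chr8:83608395-83608463 (plus) and that of Dnajb9 in exon 2 at chr12:44208106-44208174 (minus). Dnajb6 spans chr5:29748431-29751001 (plus, exons 2 to 3), and Dnajb7 lies in exon 1 at chr15:81408006-81408074 (minus). Among class C genes, Dnajc5 spans chr2:181546478-181547397 (plus, exons 2 to 3), Dnajc7 chr11:100584332-100584588 (minus, exons 11 to 12), Dnajc8 chr4:132541824-132544109 (plus, exons 3 to 4) and Dnajc13 chr9:104184707-104186767 (minus, exons 35 to 36).

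The search for the HPD codons ran on the coding strand, in frame, over the longest coding sequence of each gene. They were found in 44 of the 45 members, all but Dnajb13, and in 5.63% of 19840 coding sequences of listed genes. A repeat of cysteine and glycine codons of the kind that builds the class A zinc finger was found in all 4 class A genes, 3 times in Dnaja1, Dnaja2 and Dnaja4 and 4 times in Dnaja3. It was found in none of the 13 class B and none of the 28 class C genes, and 3 or more such repeats were found in 0.0454% of the 19840 coding sequences. Since the class letters are assigned partly by this region, the match describes the classes and is not independent of the symbols. The search asked for every cysteine and glycine of the repeat, so a repeat that departs from the pattern was not counted. The counts per gene are therefore of exact matches and need not equal the number of repeats in the protein.

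The classes also differed in where the loop lies. Coding length had a median of 404.5 codons in class A (397 to 480), 337 in class B (222 to 379) and 348 in class C (148 to 2243). The first codon of the loop was at a median of codon 35 in class A (34 to 121) and of codon 32 in class B (31 to 139), with the latest positions in Dnaja3, a mitochondrial protein, and in Dnajb12 and Dnajb14 (codon 136), which are ER membrane proteins. In class C the median was codon 80.5 and the range 31 to 1332. The loop began past codon 200 in 7 members, all of class C: Dnajc13, Dnajc6 (codon 932), Dnajc14 (472), Dnajc3 (422), Dnajc7 (409), Dnajc22 (305) and Dnajc27 (245). Within the first 100 codons it was found in 3 of 4 class A, 10 of 12 class B and 18 of 28 class C genes.

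**Figure D1:**
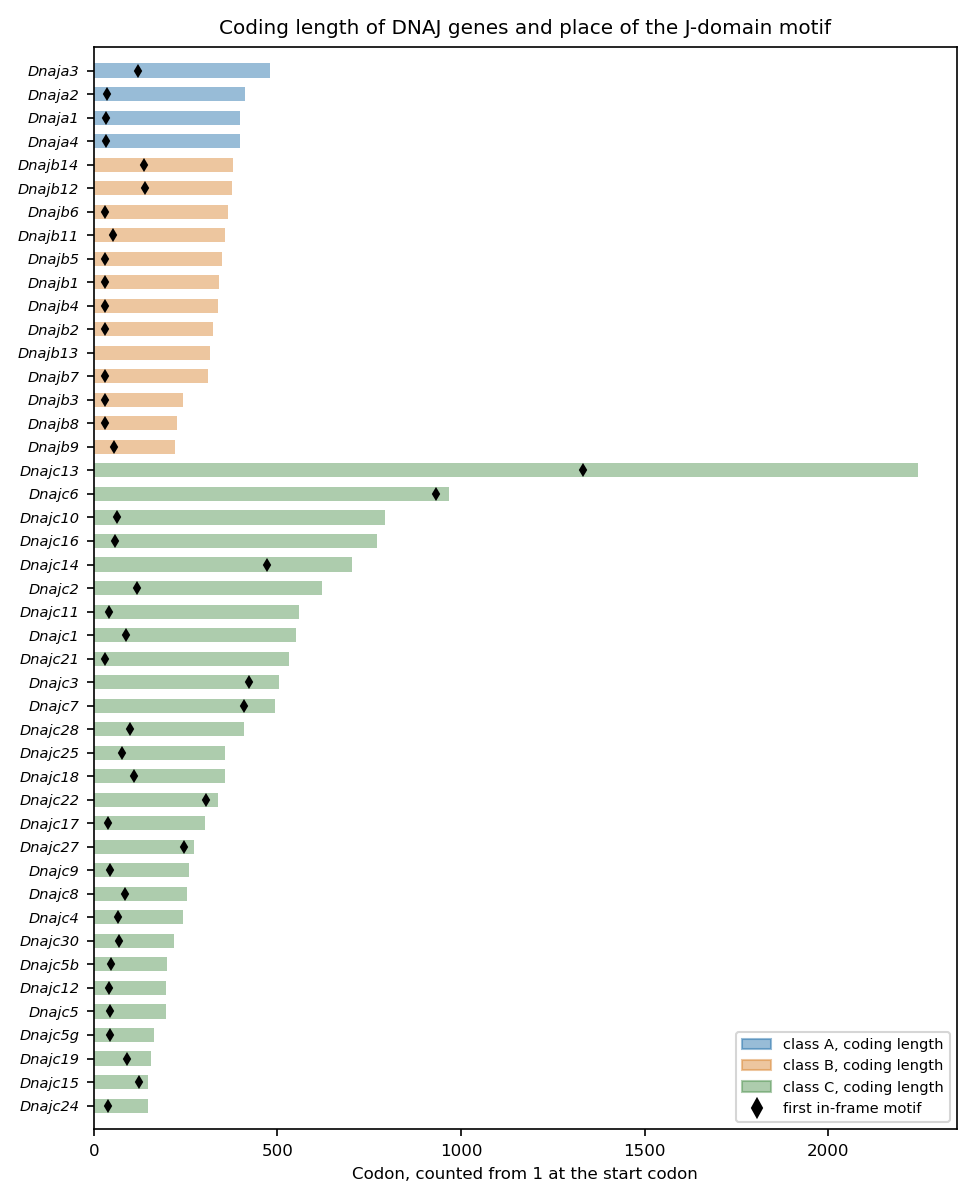
Coding length of each of the 45 DNAJ genes (bars from 0, in codons, coloured by class, longest first within a class) and the codon at which the first in-frame HPD motif begins (diamonds). The diamonds sit near the start in most class A and B genes and range from codon 31 to codon 1332 in class C, and Dnajb13 has none.

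Identity was compared over the 69-base stretches, including those not printed. It had a median of 61.6% over 6 class A pairs (49.3 to 79.7%) and of 60.1% over 66 class B pairs (46.4 to 81.2%). Class C pairs had a median of 44.9% over 351 pairs (20.3 to 78.3%), with Dnajc18 left out of the comparison. Between classes the median was 58.0% for A with B (48 pairs), 51.4% for A with C (108 pairs) and 52.2% for B with C (324 pairs). Class A and B genes were thus about as alike across the classes as within them. Class C genes shared more bases with A and B genes, at the median, than with each other. The closest pair was Dnajb6 and Dnajb7, printed above, with 56 of 69 bases in common (81.2%), followed by Dnaja1 and Dnaja2 with 55 of 69 (79.7%). The levels listed for these pairs were 40.7 mean normalized counts per kb for Dnajb6 against 0.0432 for Dnajb7, and 7.82 per kb for Dnaja1 against 515 for Dnaja2. Dnajb6 and Dnaja1 were counted as 4 and 3 transcripts and the others as 1, a limit taken up below, so the values are set side by side only. Every stretch was set on the HPD codons, so part of the identity was fixed in advance. Pairs share genes, so these values describe the family and carry no test.

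The family was widely present in the retina. A mean normalized count of 10 or more was listed for 36 of 45 members, against 47.8% of all genes, and 100 or more for 29. Of all genes with 1 counted transcript, 66.0% stood at 100 or below and 93.8% at 1000 or below. Of those with 2 or more, the shares were 91.5% and 99.1%. The median member had 292 mean normalized counts, and the median of all genes was 6.98. Per kb of transcript, the median member stood at percentile 80.5 of all genes with a length. Together the members held 0.245% of the summed mean normalized counts. At 1000 or more stood 5 members, Dnajc5 (2698), Dnaja2 (1504), Dnajc7 (1470), Dnajc18 (1176) and Dnajc8 (1073). Listed at 0 were 4 of the 45 members, against 24.1% of all genes: Dnajb8, Dnajb13, Dnajc5b and Dnajc5g.

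**Figure D2:**
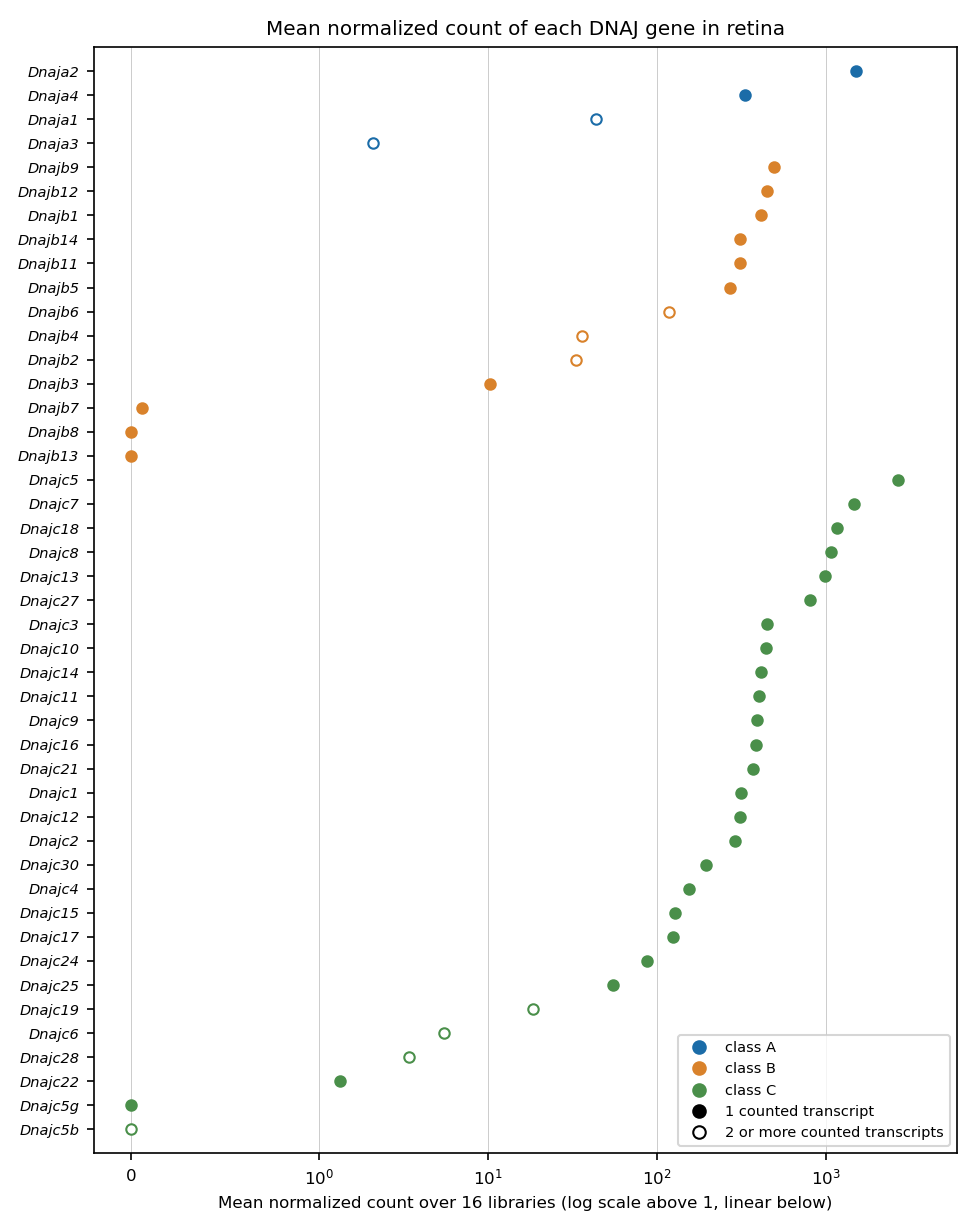
Mean normalized count of each DNAJ gene, the authors' mean over 16 libraries, by class and in falling order within it (x axis logarithmic above 1 and linear below, with no error bars because the deposited mean has none). Filled points have 1 counted transcript and hollow points 2 or more, and the hollow points lie at 119 or below while Dnajc5 is highest at 2698.

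Counts grow with transcript length, so genes were compared with each other per kilobase (kb) of the longest counted transcript. On this scale Dnajc8, a splicing-associated protein, led with 766 mean normalized counts per kb, ahead of Dnajc7, a tetratricopeptide-repeat co-chaperone that binds both HSP70 and HSP90 (631). Next came Dnaja2, a general cytosolic partner of HSP70 (515), and Dnajc5, the cysteine string protein of synaptic vesicles (410.1). These 4 genes made up 41.4% of the level per kb summed over the family. Dnajc18, which has a long transcript, stood at 229 per kb, below Dnajc9, a histone co-chaperone (241). The order depended on the length used: per kb of coding length Dnajc5 led with 4519, ahead of Dnajc8 (1408), Dnaja2 (1214), Dnajc18 (1095) and Dnajc7 (990.2), and Dnajc9 (504) stood below Dnajc18.

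By class, the median level per kb was 59.1 in A, 32.9 in B and 106 in C, and the summed level per kb was 11.3%, 15.9% and 72.8% of the family's. The highest members reached 515 per kb in A, 200.4 in B and 766 in C. A mean normalized count of 10 or more was listed for 3 of 4 class A genes, 10 of 13 class B genes and 23 of 28 class C genes. The order of A and C depended on genes counted as several transcripts. Over genes with 1 counted transcript the medians were 313 per kb in A (2 genes), 75.6 in B (10 genes) and 121 in C (24 genes), so A then stood above C. Class B was lowest in both cases. Its genes with 1 counted transcript included Dnajb3, Dnajb7, Dnajb8 and Dnajb13, known from testis or cilia, at 0 to 9.76 per kb. Its other genes with 1 counted transcript ranged from 32.9 to 200.4 per kb. In class C, Dnajc5g (0) was the only such testis gene with 1 counted transcript. The rank of class B therefore depends on these genes, and medians without them were not computed.

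The number of transcripts counted per gene moved with the level. Reads had been counted for each of 31616 RefSeq transcripts, and 36 members had 1 such transcript while 9 had 2 or more. The 36 had a median of 323 mean normalized counts, 28 of them at 100 or more. The 9 had a median of 18.5, and 1 of them, Dnajb6, was at 100 or more. Of the 9 members below a mean normalized count of 10, 5 had 1 counted transcript and 4 had 2 or more.

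The same split ran through the whole table. Genes with 1 counted transcript (22086) had a median of 12.9 mean normalized counts and 51.7% stood at 10 or more, whereas the 3794 genes with 2 or more had a median of 0.806 and 24.6% at 10 or more. For 2399 of the latter the exons of every counted transcript could be placed on the reference. Where no 75-base window, the read length, belonged to 1 transcript alone (277 genes), the median was 0 and 4 genes stood at 10 or more. Where over 50% of exonic bases belonged to 1 transcript (590 genes), the median was 20.8. A read within an exon shared by several features can be set aside as ambiguous by a read counter, and how HTSeq was set in this respect, and how several transcripts became 1 value per gene, is not given in the sources used here. Its part in the levels of the 9 members was not tested. Their levels are therefore given as listed and are not read as low expression.

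**Figure D3:**
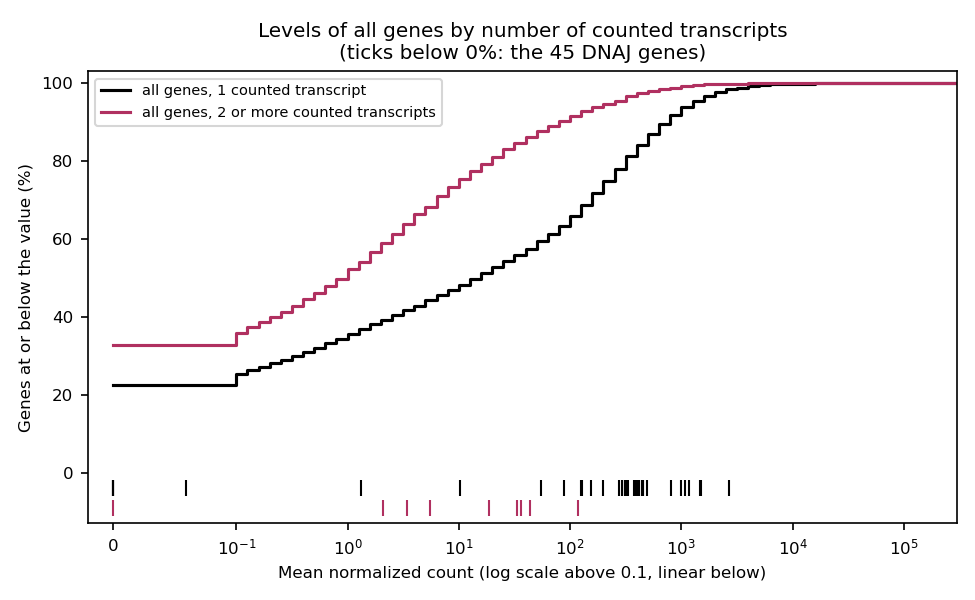
Share of all genes (y axis, %) at or below a given mean normalized count (x axis, logarithmic above 0.1 and linear below), for genes with 1 counted transcript (black) and with 2 or more (red), with the 45 DNAJ genes as ticks in the same colours under the curves. The red curve lies above the black one, with 32.7% against 22.6% of genes at 0, and the red ticks reach no higher than 119.

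Among class A genes, Dnaja2 had 1504 mean normalized counts and Dnaja4, a heat-inducible cytosolic relative, 332, each from 1 counted transcript. Dnaja1, the other main cytosolic class A protein and an isoprenylated partner of Hspa8, was listed at 44.0 from 3 counted transcripts. Per kb these levels were 515 for Dnaja2, 110 for Dnaja4 and 7.82 for Dnaja1. Dnaja3, the class A protein of the mitochondrial matrix, was listed at 2.09 from 2 transcripts, of whose exonic bases 5.40% belonged to 1 transcript only. Both low class A genes were thus among those counted as several transcripts. In Dnaja1, 10.5% of exonic bases also overlapped Smu1, a neighbouring counted gene. Such overlaps were found for 6 members, and since the strand setting of the counting is not given in the sources used here, reads there cannot be assigned to 1 gene with certainty.

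Cytosolic HSP70 partners of classes A and B formed a group of 8, all at 10 or more mean normalized counts, with a median of 196. The 4 with 1 counted transcript ranged from 110 to 515 per kb. Besides Dnaja2 and Dnaja4 they were Dnajb1, the classical heat-inducible HSP40 (414 mean normalized counts, 138 per kb), and Dnajb5 (272, or 118 per kb). Dnajb1 and Dnajb5 lay close together per kb, and whether they differed was not tested. The other 4, Dnaja1, Dnajb2, Dnajb4 and Dnajb6, had 2 to 5 counted transcripts and mean normalized counts of 33.1 to 119. Dnajb2, whose isoforms are enriched in neurons, was listed at 33.1 with 43.7% of its exonic bases in 1 transcript only, and Dnajb6, a suppressor of polyglutamine aggregation, at 119.

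The 7 members assigned here to the ER were all at 10 or more, with a median of 444 mean normalized counts, and each had 1 counted transcript. Roles were assigned from textbook knowledge, and the ER list is not complete: for example, Dnajc14, placed among the remaining members, also acts at the ER. Dnajb12 and Dnajb9 stood almost level, at 200.4 and 200.3 per kb (449 and 493 mean normalized counts). Dnajb12 is an ER membrane protein that acts in degradation of misfolded membrane proteins, and Dnajb9 is a lumenal protein induced by the unfolded protein response. Dnajb11, a soluble partner of the ER HSP70 that is secreted in part, had 123 per kb. Dnajc10, a disulfide reductase of the ER (109.8), and Dnajc3, an inhibitor of the eIF2-alpha kinases (88.0), followed. Dnajc1, a membrane protein of the ER, stood at 57.2 and Dnajb14, a relative of Dnajb12 with a long transcript, at 32.9 per kb. Per kb of coding length Dnajb9 (737) stood above Dnajb12 (397), and Dnajb14 (274) above Dnajc10 (186).

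Of 5 mitochondrial members 4 reached 10 mean normalized counts. Dnajc11, of the cristae-organising complex, had 128 per kb and Dnajc30, a partner of ATP synthase, 119, while Dnajc15 of the inner membrane, which has a long transcript, stood at 20.6. Per kb of coding length the difference was gone, with 240.4 for Dnajc11, 299 for Dnajc30 and 284 for Dnajc15. Dnajc30 shared 8.61% of its exonic bases with Wbscr22. Dnajc19, a subunit of the import motor, was listed at 18.5 mean normalized counts from 2 transcripts although 85.3% of its exonic bases belonged to 1 transcript only, and 5.27% overlapped Fxr1. Dnaja3 completed the group at 2.09.

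Vesicle and endosome members stood far apart from each other, with 2 of 5 at 10 or more mean normalized counts. Dnajc5, which keeps synaptic SNARE proteins folded, had the highest mean normalized count of the family (2698), and Dnajc13, an endosomal protein that regulates clathrin dynamics, had 990, or 124 per kb. Dnajc6, auxilin, which uncoats clathrin vesicles in neurons, was listed at 5.50 from 4 counted transcripts with 10.0% of exonic bases in 1 transcript only. The group held 9.54% of the family's summed level per kb and 21.6% of its summed mean normalized counts. Gak, a broadly expressed relative of Dnajc6 with another symbol, had 875. Dnajc5b and Dnajc5g, relatives of Dnajc5 known from testis, were listed at 0. They came from 3 counted transcripts and 1 counted transcript, and in the stretch around the HPD codons they shared 54 of 69 bases with each other.

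Members acting in the nucleus, on ribosomes or on RNA were all at 10 or more and each had 1 counted transcript. This group of 5 held 25.8% of the family's summed level per kb but 13.2% of its summed mean normalized counts, undivided by length. Dnajc8 led at 766, Dnajc9 followed at 241 and Dnajc21, of ribosome maturation, at 181. Dnajc2, the ribosome-associated co-chaperone also known as MPP11, had 137 and Dnajc17, a splicing-associated protein, 124 per kb. In Dnajc17, 10.7% of exonic bases overlapped Zfyve19.

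The group known from testis or cilia showed the opposite pattern, with 1 of 6 members at 10 or more and a median of 0. That member was Dnajb3, at 10.3 mean normalized counts. Dnajb7 was listed at 0.0594, and Dnajb8, Dnajb13, Dnajc5b and Dnajc5g at 0. All but Dnajc5b had 1 counted transcript. Dnajc5b and Dnajc5g also belong to the vesicle group. In Dnajb13, 11.8% of exonic bases overlapped Ucp2. The group held 0.175% of the family's summed level per kb and 0.0603% of its summed mean normalized counts.

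The 11 remaining members had a median of 310 mean normalized counts. Dnajc7 (631 per kb), Dnajc18 (229), Dnajc4 (184) and Dnajc27, which carries a small GTPase domain (172), were the highest. Dnajc12, a co-chaperone of aromatic amino acid hydroxylases, stood at 102 and Dnajc14, which guides receptors from the ER, at 98.4 per kb, with 26.3% of Dnajc14 exonic bases overlapping Ormdl2. Dnajc16 (64.8) and Dnajc24, needed for diphthamide synthesis (73.3), were lower. Dnajc25 stood at 13.7 per kb. Per kb of coding length Dnajc18 (1095), Dnajc7 (990.2) and Dnajc27 (986) were the highest of this group, and Dnajc4 (211) stood below Dnajc12 (519). Below 10 mean normalized counts were Dnajc28 (3.42, from 2 transcripts) and Dnajc22 (1.33, from 1).

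**Figure D4:**
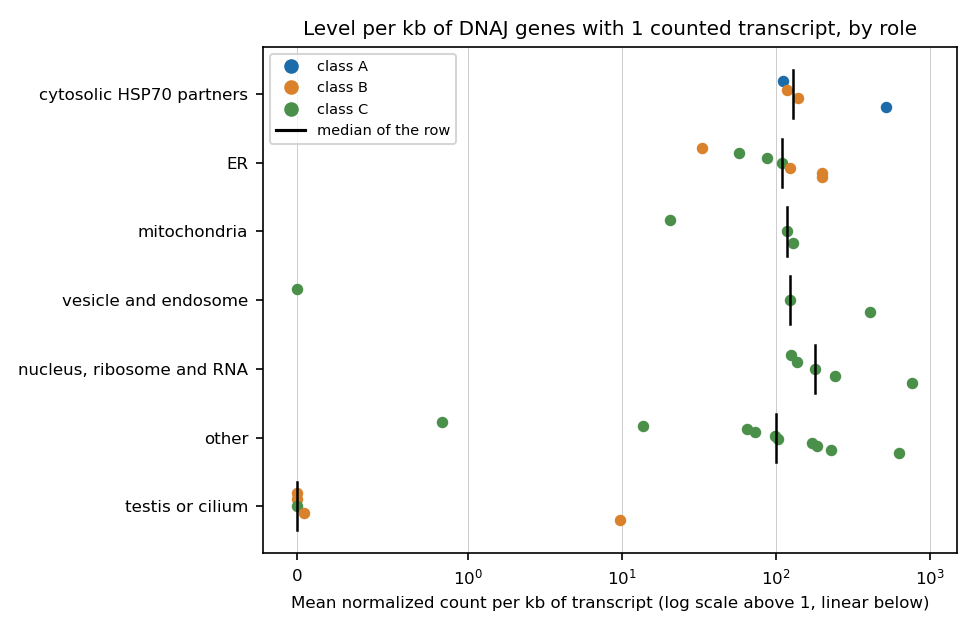
Level of the DNAJ genes with 1 counted transcript, by role (x axis, mean normalized counts per kb of transcript, logarithmic above 1 and linear below, points coloured by class, bars at the median of each row). The medians of 6 roles lie between 100.4 and 181, and that of the testis or cilium group at 0; Dnajc5g is drawn in both of its roles.

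Most partner genes of the family were listed at 10 or more mean normalized counts. Hspa8, the constitutive cytosolic HSP70, had 8922 mean normalized counts and Hspa9, the mitochondrial one, 1886. The heat-inducible Hspa1a and Hspa1b, near-identical copies whose reads are hard to assign, had 478 and 360. Hspa5, the HSP70 of the ER lumen, was listed at 0 and had 2 counted transcripts, and Hspa13 (0.337) and Hspa2 (5.43) had 2 as well. Among 13 nucleotide exchange factors, which release ADP from HSP70, 12 were at 10 or more. Hspa4l (2505), Hspa4 (1676) and the ER protein Hyou1 (878) were among them, and Bag1, with 2 transcripts and no window of its own, was listed at 0. The adaptor genes St13 (1966), Stip1 (1535) and Stub1 (642) and the J-domain genes Sec63 (1291), Gak and Hscb (34.8), which bear other symbols, were above 10. Over these 31 partner genes, 26 of 27 with 1 counted transcript and 0 of 4 with more reached 10. The levels of these 4 are given as listed and are not read as low expression.

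The tissue label was checked against marker lists. At 10 or more mean normalized counts were all 5 rod genes, all 4 cone genes, all 4 bipolar genes, all 3 amacrine and horizontal genes, 3 of 4 ganglion cell genes and 2 of 3 Müller glia genes. The rod genes included Nrl (88.9, from 2 counted transcripts), Cnga1 (8658), Pde6b (13375) and Gnat1 (154477). Bipolar Trpm1, with 2 counted transcripts as well, was listed at 2866, and Glul of Müller glia at 17455. The genes under 10 in these lists, Rlbp1 (1.39) and Rbpms (5.53), had 2 and 3 counted transcripts. Markers of neighbouring tissue were also listed. At 10 or more were 2 of 3 pigment epithelium genes (Ttr 540.04, Rpe65 121, Best1 2.72), all 3 lens genes (highest Cryaa, 898), 1 of 2 endothelial genes (Cldn5 51.1, Pecam1 0.446) and 1 of 2 blood genes (Hbb-b1 10.7, Hba-a1 0.213). Of these, Pecam1 had 2 counted transcripts, and Best1, Hba-a1 and the others named had 1. The part of any cell type in the DNAJ levels was not tested, since a single mean per gene gives no variation between libraries.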

How the data were processed

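RNA of mouse retina was sequenced in 16 libraries (single-end reads of 75 bases, stranded kit). Per the study's methods the authors trimmed reads with Trimmomatic, aligned them with TopHat2 to an older NCBI mouse build and counted RefSeq transcripts with HTSeq. The authors then used DESeq2 1.22.2 in R 3.5.1. The deposited signal used here is the authors' mean of counts divided by size factors. The table's other columns hold the authors' fold changes, standard errors, test statistics and p-values and were not used. In all, 32 columns of counts per library bear codes that match no label and were not used, so library depth is unknown here. The edgeR test planned for flight against ground control was therefore not run. Members and lists were chosen with earlier results of these data known. Named were every class A gene, class B and C genes at 100 or more by role, members under 10, and each class's extremes. Lengths came from GENCODE M21 (GRCm38), by accession for all 45 members and for 19840 genes, and by symbol for 2967, together 88.0% of 25905. Overlap with other genes ignored strand. Python 3.11.15, numpy 2.4.6, pandas 2.3.3 and matplotlib 3.10.9 were used. Steps were tested on simulated data. Some genes of the partner and marker lists are not reported here.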

Additional observations from a re-analysis of the deposited data

How the results depend on the processing

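Values are given in the order class A, B, C. The median level per kb (59.1, 32.9 and 106) became 157, 108 and 197 per kb of coding length, 188, 119 and 312 without division by length, and 110, 79.5 and 124 over members at 10 or more. Over genes with 1 counted transcript, a setting chosen after seeing the data, it was 313, 75.6 and 121, and the order of A and C turned. The median percentile of the level per kb (67.6, 65.3 and 81.6) became 65.3, 52.6 and 68.6 at a minimum of 10, 73.2, 71.6 and 83.3 without division, and 87.8, 70.3 and 80.9 with 1 counted transcript. The share of the summed level (11.3, 15.9 and 72.8%) became 10.998, 14.3 and 74.7% without division, 8.92, 14.9 and 76.2% per coding length, 2.88, 16.7 and 80.4% without the highest member of each class (Dnaja2, Dnajb12 and Dnajc8 together), and 14.9 and 73.8% in B and C with 1 counted transcript. The count of members at 10 or more (3, 10 and 23) was 4, 10 and 26 at a minimum of 1, and 2, 7 and 20 at 100. No paired analysis was possible because the columns of counts carry no label or replicate number. For the same reason the planned fits with edgeR or DESeq2, with other size factors, without a filter or without single libraries were not run. The deposited mean gives no depth or spread.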
